A study of Mus musculus with 157 samples.

Results

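The Iroquois genes Irx1, Irx2, Irx3, Irx4, Irx5 and Irx6 of the mouse were followed at the level of RNA polymerase II (Pol II) occupancy while embryonic stem cells were exposed to retinoic acid (RA). All rows whose gene name is Irx1 to Irx6 were taken, which gave 6 genes of the 23643 gene symbols in the table of total Pol II at start sites, and 8 transcript rows of 33687. Irx3 and Irx6 each have 2 RefSeq transcripts with the same counts in every library, and each of these genes was counted once. The 6 genes lie in 2 clusters in the RefSeq annotation of GRCm38. Irx1 (chromosome 13, 71958232 to 71963723), Irx2 (72624430 to 72634196) and Irx4 (73259589 to 73269622) form the chromosome 13 cluster. Irx3 (chromosome 8, 91798511 to 91801654), Irx5 (92357796 to 92361456) and Irx6 (92674289 to 92680956) form the chromosome 8 cluster.

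Iroquois proteins are transcription factors of the TALE class of homeodomain proteins, whose homeodomain carries an extra loop. They help to divide the neural plate and neural tube into territories and to pattern the heart, limbs and other organs. In the developing neural tube, Irx3 takes part in setting borders between progenitor domains, Irx5 often shares the territory of its neighbour Irx3, and Irx4 is best known from the ventricles of the heart. RA, the active form of vitamin A, binds nuclear receptors, drives stem cells out of self-renewal and gives neural cells posterior identity.

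The cells were E14, a mouse embryonic stem cell line grown without a genetic change named in the labels, on gelatin with serum and LIF. They received 1 µM RA and were taken before RA (0 h, the untreated group), early, at 2, 4 and 6 h, and late, at 24, 48 and 72 h. Crosslinked chromatin was precipitated with antibodies to the N-terminal domain (NTD) of the largest Pol II subunit, which report total Pol II, to the C-terminal repeat phosphorylated at serine 5 (Ser5p), a form of the start of transcription, or at serine 2 (Ser2p), a form of elongation. The labels list 157 samples, and 53 of them could be matched to columns of 4 deposited summary tables. NTD had 2 libraries at 0, 2, 24 and 72 h and 3 at 4, 6 and 48 h, and Ser5p and Ser2p had the same numbers except for 3 libraries at 2 h. Whether replicates are separate cultures is not stated, and the p-values below therefore speak of the spread among these libraries, which may be technical.

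Around each transcription start site (TSS), reads were counted in a window of 2 kb, reaching 1 kb up and 1 kb down, for NTD (1088159 to 3210580 reads per library) and Ser5p (1504737 to 3347830), and over gene bodies for NTD (11684907 to 25696364) and Ser2p (18045745 to 28745658). Levels at the TSS are given in CPM, the count scaled to the same total of reads in every library's table. The Irx genes are thinly covered: at the TSS they held on average 12.2 to 26.8 NTD reads and 26.8 to 50.4 Ser5p reads per library. Mean NTD levels at the TSS ran from 6.07 CPM (Irx6) to 13.3 CPM (Irx2), at or below the median transcript with 13.8 CPM. Mean Ser5p levels ran from 12.9 CPM (Irx6) to 24.2 CPM (Irx2), on either side of the median transcript with 17.3 CPM.

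The 2 untreated replicates differed at these genes, in opposite directions for the 2 antibodies. At the start sites replicate 4 was the lower of the 2 untreated NTD libraries at 6 of 6 Irx genes. It was the higher of the 2 untreated Ser5p libraries at 6 of 6. Leaving out replicate 4 thus keeps the higher NTD and the lower Ser5p library as the baseline. With 2 libraries, which of them is apart in NTD cannot be told. At Irx3 the NTD libraries of 2 to 6 h, with 5.76 to 9.75 CPM, lay between replicate 4 (4.62 CPM) and replicate 1 (11.4 CPM). Over gene bodies replicate 4 was the higher NTD library at 3 of 6 (Irx2, Irx3 and Irx4) and the higher Ser2p library at all Irx genes but Irx2. The shares of all transcripts with these directions are not given here, and whether they are particular to the Irx genes was not tested. Called changes of Irx genes against 0 h are given with and without untreated replicate 4. Counts of neighbouring genes and gene lists at 48 h are given with and without this replicate and replicate 3 of 72 h together. The means of 48 h and 0 h do not use that 72 h library, and for the lists this check was added after the data were seen. Counts of cell type markers are given with all libraries only. Comparisons of 48 h with 6 h, whose means do not use the untreated libraries, and tests over all times stand beside the called changes of Irx genes.

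The stretches directly before the start site are printed here because both TSS measures are read around them. RefSeq (GRCm38.p6) start sites were matched for Irx2, Irx3 and Irx4. For each gene the 250 bases before the start are shown on the gene's own strand, with each CpG pair in capitals: chr13:72628570-72628819 on the plus strand for Irx2, chr8:91801655-91801904 on the minus strand for Irx3 and chr13:73260247-73260496 on the plus strand for Irx4.
Irx2: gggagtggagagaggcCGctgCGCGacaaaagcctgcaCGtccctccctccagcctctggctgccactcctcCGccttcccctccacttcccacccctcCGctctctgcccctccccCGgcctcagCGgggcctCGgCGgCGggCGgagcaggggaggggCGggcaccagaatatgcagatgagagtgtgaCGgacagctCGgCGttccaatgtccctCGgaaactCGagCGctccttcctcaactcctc
Irx3: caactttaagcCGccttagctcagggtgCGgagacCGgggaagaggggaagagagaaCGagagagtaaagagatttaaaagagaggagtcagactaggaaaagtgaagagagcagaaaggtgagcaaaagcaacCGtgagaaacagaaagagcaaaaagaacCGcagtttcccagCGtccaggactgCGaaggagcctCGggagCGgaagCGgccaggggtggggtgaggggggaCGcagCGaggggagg
Irx4: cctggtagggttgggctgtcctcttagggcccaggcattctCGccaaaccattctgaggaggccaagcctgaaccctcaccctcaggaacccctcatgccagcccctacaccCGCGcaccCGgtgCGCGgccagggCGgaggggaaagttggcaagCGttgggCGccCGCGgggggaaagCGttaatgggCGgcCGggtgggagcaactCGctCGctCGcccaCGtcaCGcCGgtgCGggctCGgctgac
The Irx2 stretch holds 19 CpG pairs at 68.4% G and C, Irx3 holds 13 at 56.0% and Irx4 holds 22 at 68.8%. The median over 32851 promoters of the same length is 6 pairs at 52.4%, and 80.3%, 68.5% and 85.2% of promoters hold fewer pairs than Irx2, Irx3 and Irx4. The G- and C-rich hexamer GGGCGG was found on either strand 2 times before Irx2, 2 times before Irx4 and not before Irx3, and 32.7% of promoters hold it. The letters AGGTCA, the core hexamer of RA receptor sites, occur in 0 of the 3 stretches and in 14.02% of promoters, TATAAA in 0 and 12.4%, and ACANNTGT, a palindrome bound by Iroquois proteins, in 0 and 6.31%. These are counts of letters in these windows.

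Total Pol II at the TSS of Irx3 and Irx2 was higher from 48 h. At Irx3, the best known Iroquois gene of the neural tube, NTD read 11.4 and 4.62 CPM in the untreated libraries. It read 8.10 and 9.75 CPM at 2 h, 8.47, 7.09 and 6.64 CPM at 4 h, 8.14, 5.76 and 7.41 CPM at 6 h, and 9.25 and 8.42 CPM at 24 h. It then read 27.3, 15.0 and 29.4 CPM at 48 h and 23.2 and 21.2 CPM at 72 h. Every library of 48 and 72 h lay above every earlier one, 24 h included. Against 6 h, Irx3 rose at 48 h by 1.55 ± 0.27 (log2, SE; edgeR adjusted p 6.99e-05), from 7.11 ± 1.22 to 23.9 ± 7.79 CPM (SD, n = 3 each), and against 0 h by 1.52 ± 0.31 (adjusted p 0.000461) at 48 h and 1.57 ± 0.32 (0.000573) at 72 h. The rise over 6 h was called in 23 of 23 alternatives. In bulk chromatin such as this, more cells with Pol II at a gene and more Pol II per cell cannot be told apart. Without untreated replicate 4 the change of Irx3 against 0 h was 1.01 at 48 h (adjusted p 0.123) and 1.06 at 72 h (0.100), no longer called.

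Irx2, the middle gene of the chromosome 13 cluster, followed a similar course with an earlier intermediate level. Its NTD libraries read 9.25 and 6.55 CPM at 0 h, 9.97 and 10.8 CPM at 2 h, 10.1, 13.6 and 13.7 CPM at 4 h, and 11.6, 9.13 and 4.94 CPM at 6 h. They read 11.0 and 18.2 CPM at 24 h, 15.8, 18.3 and 25.7 CPM at 48 h, and 22.5 and 15.0 CPM at 72 h. All 5 libraries of 48 and 72 h lay above all 10 libraries of 0 to 6 h, while one of the 24 h libraries lay among the late ones. Irx2 rose by 1.16 ± 0.28 over 6 h at 48 h (edgeR adjusted p 0.00394), and against 0 h by 1.29 ± 0.32 (0.00479) at 48 h and 1.23 ± 0.34 (0.0124) at 72 h. Without untreated replicate 4 the changes of Irx2 against 0 h were 1.12 (adjusted p 0.132) and 1.05 (0.177). Without replicate 4 of 6 h, the lowest Irx2 library, the rise over 6 h was 0.84 (0.0873). Irx2 and Irx3 are the 2 of 6 Irx genes whose libraries of 48 and 72 h were all above those of 0 to 6 h, and 4.77% of 22142 tested symbols met the same condition.

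Irx1 and Irx5 rose against 0 h at one late time each, and these calls are less stable. Irx1, the first gene of the chromosome 13 cluster, read 6.53 and 2.31 CPM of NTD at 0 h, between 3.84 and 9.00 CPM in the 8 libraries of 2 to 6 h, and 7.05 and 7.74 CPM at 24 h. It read 12.2, 9.49 and 9.19 CPM at 48 h and 11.6 and 5.29 CPM at 72 h, so that the 48 h libraries lay above all earlier ones and a 72 h library fell among them. Irx1 rose by 1.26 ± 0.42 at 48 h (edgeR adjusted p 0.0443) and measured 0.90 ± 0.46 at 72 h (0.258). Without untreated replicate 4 its 48 h change was 0.70 (0.551), and 13 of 22 alternatives called it. Irx5, which neighbours Irx3, read 7.62 and 5.78 CPM at 0 h, 5.61 to 15.1 CPM at 2 to 6 h and 5.73 and 10.4 CPM at 24 h. It read 12.9, 13.1 and 12.9 CPM at 48 h and 12.3 and 15.3 CPM at 72 h. These late libraries lay above both untreated ones, yet 1 library of 6 h was higher than every library of 48 h. Irx5 measured 0.95 ± 0.35 at 48 h (0.0808) and rose by 1.15 ± 0.36 at 72 h (0.0316), which became 1.02 (0.243) without untreated replicate 4.

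Irx4 and Irx6, the genes with the highest coordinates of their clusters, showed no called change in total Pol II. Irx4 read 10.3 and 6.93 CPM of NTD at 0 h, 12.2, 8.76 and 6.43 CPM at 48 h and 4.35 and 5.29 CPM at 72 h. Its 72 h libraries lay below both untreated ones, with a change of -0.70 ± 0.42 (edgeR adjusted p 0.357). Irx6 read 8.16 and 4.62 CPM at 0 h, 7.17, 5.48 and 8.27 CPM at 48 h and 7.98 and 3.11 CPM at 72 h, with overlapping groups. At 6 h Irx6 read 2.88 to 5.30 CPM, below all 3 libraries of 48 h, and this difference was not called. Its changes were 0.07 ± 0.45 at 48 h (0.958) and -0.32 ± 0.50 at 72 h (0.797).

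Across the 6 genes, edgeR called 3 higher at 48 h (Irx1, Irx2, Irx3), where 4.66% of transcripts were higher, and 3 at 72 h (Irx2, Irx3, Irx5), where 5.66% were. Between 48 h and 6 h it called 2 higher (Irx2, Irx3; 3.60% of transcripts), and over all times the same 2 (14.9% of transcripts in either direction; adjusted p 5.76e-07 for Irx3 and 0.00242 for Irx2). At 2, 4, 6 and 24 h edgeR called 0 of 6 against 0 h, with 0, 1, 0 and 2 at an unadjusted p under 0.05, and 0.320%, 0.709%, 0.728% and 1.52% of transcripts called. DESeq2 also called 0 at these times, but gave no adjusted p for 6, 6 and 4 of the 6 genes at 4, 6 and 24 h. In the authors' deposited table of total Pol II at the TSS, Irx3 is the only Irx gene marked as increased, first at 48 h (adjusted p 0.0321, and 0.0386 at 72 h).

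**Figure D1:**
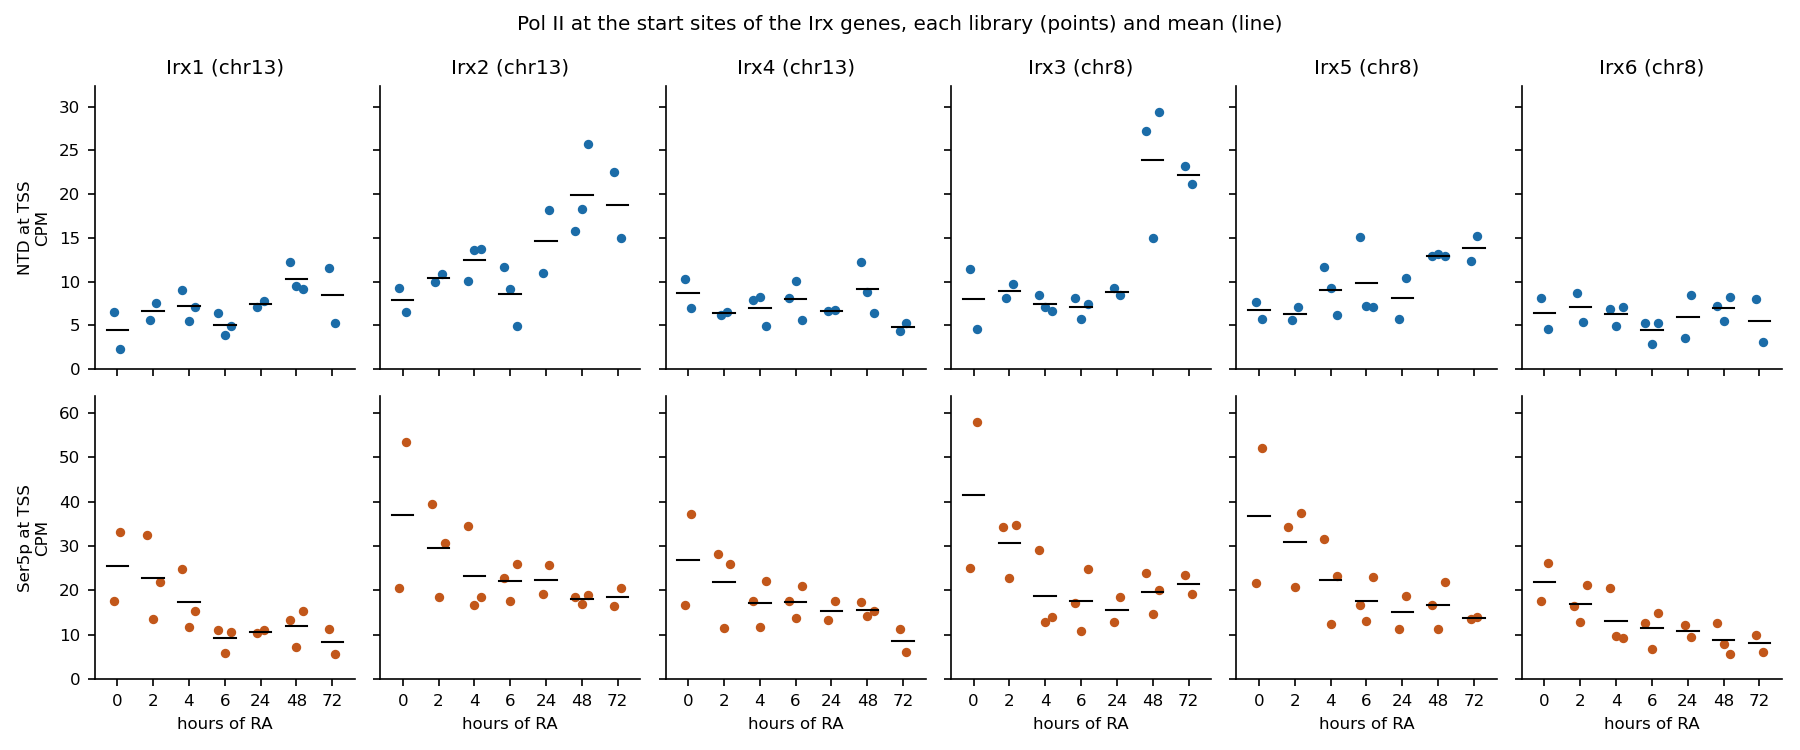
CPM in the 2 kb window around the start site (vertical axes) against hours of RA (horizontal axes, not to scale) for NTD (upper row) and Ser5p (lower row), with 1 point per library and a line at the mean of each time. NTD at Irx3 and Irx2 is higher in every library of 48 and 72 h than in those of 0 to 6 h. Ser5p is highest in the same library, untreated replicate 4, at all 6 genes.

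Ser5p at the TSS went the other way, and 4 of 6 genes were called over all times (14.5% of transcripts). At 6 of 6 genes the highest Ser5p library was the same one, untreated replicate 4. The share of all transcripts that are highest in this library is not given here. Ser5p at Irx3 read 25.1 and 58.1 CPM at 0 h, 34.2, 22.8 and 34.8 CPM at 2 h, 29.2, 12.9 and 13.9 CPM at 4 h and 17.2, 10.8 and 24.9 CPM at 6 h. It read 12.8 and 18.5 CPM at 24 h, 23.9, 14.7 and 20.0 CPM at 48 h and 23.6 and 19.1 CPM at 72 h. The late Irx3 libraries lay below both untreated ones and within the range of 6 h. Irx3 fell by 1.12 ± 0.32 at 24 h (edgeR adjusted p 0.0329) and by 0.98 ± 0.29 at 48 h (0.021), and measured -0.80 ± 0.32 at 72 h (0.115). Without untreated replicate 4 the Irx3 change at 24 h was -0.43 (0.531), not called.

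Irx1 gave the steadiest Ser5p change. It read 17.7 and 33.3 CPM at 0 h, 32.6, 13.6 and 21.9 CPM at 2 h, 24.8, 11.8 and 15.5 CPM at 4 h and 11.2, 5.87 and 10.6 CPM at 6 h. It then read 10.3 and 11.1 CPM at 24 h, 13.3, 7.16 and 15.4 CPM at 48 h and 11.2 and 5.60 CPM at 72 h. Every Irx1 library from 6 h on lay below both untreated libraries. Over all times the test called Irx1 (edgeR adjusted p 0.00155), in 24 of 24 alternatives, those without untreated replicate 4 included. Irx1 fell by 0.98 ± 0.32 at 48 h (0.0393) and by 1.48 ± 0.39 at 72 h (0.00979).

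Irx5 and Irx6 of the chromosome 8 cluster also fell. Irx5 read 21.6 and 52.2 CPM of Ser5p at 0 h, 16.6, 11.4 and 21.9 CPM at 48 h and 13.5 and 14.01 CPM at 72 h, and Irx6 read 17.7 and 26.1 CPM, then 12.6, 8.00 and 5.58 CPM, then 10.0 and 6.07 CPM at the same times. At Irx6 the 48 and 72 h libraries lay below both untreated ones, and at Irx5 a 48 h library lay just above the lower untreated one. The 48 h changes were -1.01 ± 0.31 for Irx5 (edgeR adjusted p 0.0259) and -1.25 ± 0.33 for Irx6 (0.00847), and the 72 h changes -1.24 ± 0.36 (0.0219) and -1.32 ± 0.38 (0.0186). Irx2 and Irx4 were called at 1 late time each. Irx2 read 20.6 and 53.5 CPM at 0 h, 18.6, 16.8 and 19.1 CPM at 48 h and 16.5 and 20.5 CPM at 72 h, with changes of -0.88 ± 0.30 (0.0449) and -0.80 ± 0.33 (0.13). Irx4 read 16.7 and 37.2 CPM at 0 h, 17.3, 14.3 and 15.4 CPM at 48 h and 11.2 and 6.07 CPM at 72 h, with changes of -0.65 ± 0.30 (0.167) and -1.51 ± 0.38 (0.00659).

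Called lower were 1 of 6 genes at 24 h (3.14% of transcripts), 5 of 6 at 48 h (5.37%; all but Irx4) and 4 of 6 at 72 h (3.87%; Irx1, Irx4, Irx5 and Irx6). Over all times 4 of 6 were called (14.5% of transcripts; Irx1, Irx3, Irx5 and Irx6), with an edgeR adjusted p of 0.211 for Irx2 and 0.0581 for Irx4. At 2, 4 and 6 h edgeR called 0 of 6, with 0, 3 and 5 at an unadjusted p under 0.05 and 0.0305%, 0.0153% and 0.0549% of transcripts called, and DESeq2 called 0 but gave none of the 6 an adjusted p. Between 48 h and 6 h both tools called 0 of 6, with 0 at an unadjusted p under 0.05 and 7.02% of transcripts called by edgeR, and DESeq2 gave no adjusted p for 2 of the 6.

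The size of the Ser5p fall against 0 h rests on 1 untreated library, and its calls at 48 h also depend on single libraries of 48 h. The calls of Irx1, Irx2, Irx3 and Irx5 were lost without replicate 2 of 48 h, and that of Irx6 without replicate 3 of 48 h. Without untreated replicate 4 of Ser5p, the 48 h changes were -0.49 for Irx1, -0.08 for Irx2, -0.29 for Irx3, -0.002 for Irx4, -0.28 for Irx5 and -0.97 for Irx6, with edgeR adjusted p-values between 0.196 for Irx6 and 0.998 for Irx4. The 72 h changes without it were -0.99 for Irx1, -0.87 for Irx4, -0.51 for Irx5 and -1.04 for Irx6 (adjusted p 0.271, 0.343, 0.608 and 0.229). The 4 calls at 72 h were also lost without replicate 3 of 72 h, with changes of -1.16 for Irx1, -1.23 for Irx4, -1.41 for Irx5 and -1.11 for Irx6. All of these values kept a negative sign. Over all times the calls of Irx3 and Irx6 were also lost without untreated replicate 4 (edgeR adjusted p 0.102 and 0.0902), while those of Irx1 and Irx5 were not (0.00326 and 0.0295). Scaling also matters: with the authors' scale factors, and with DESeq2, 1 of 6 genes (Irx6) was called at 48 h in place of 5.

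**Figure D2:**
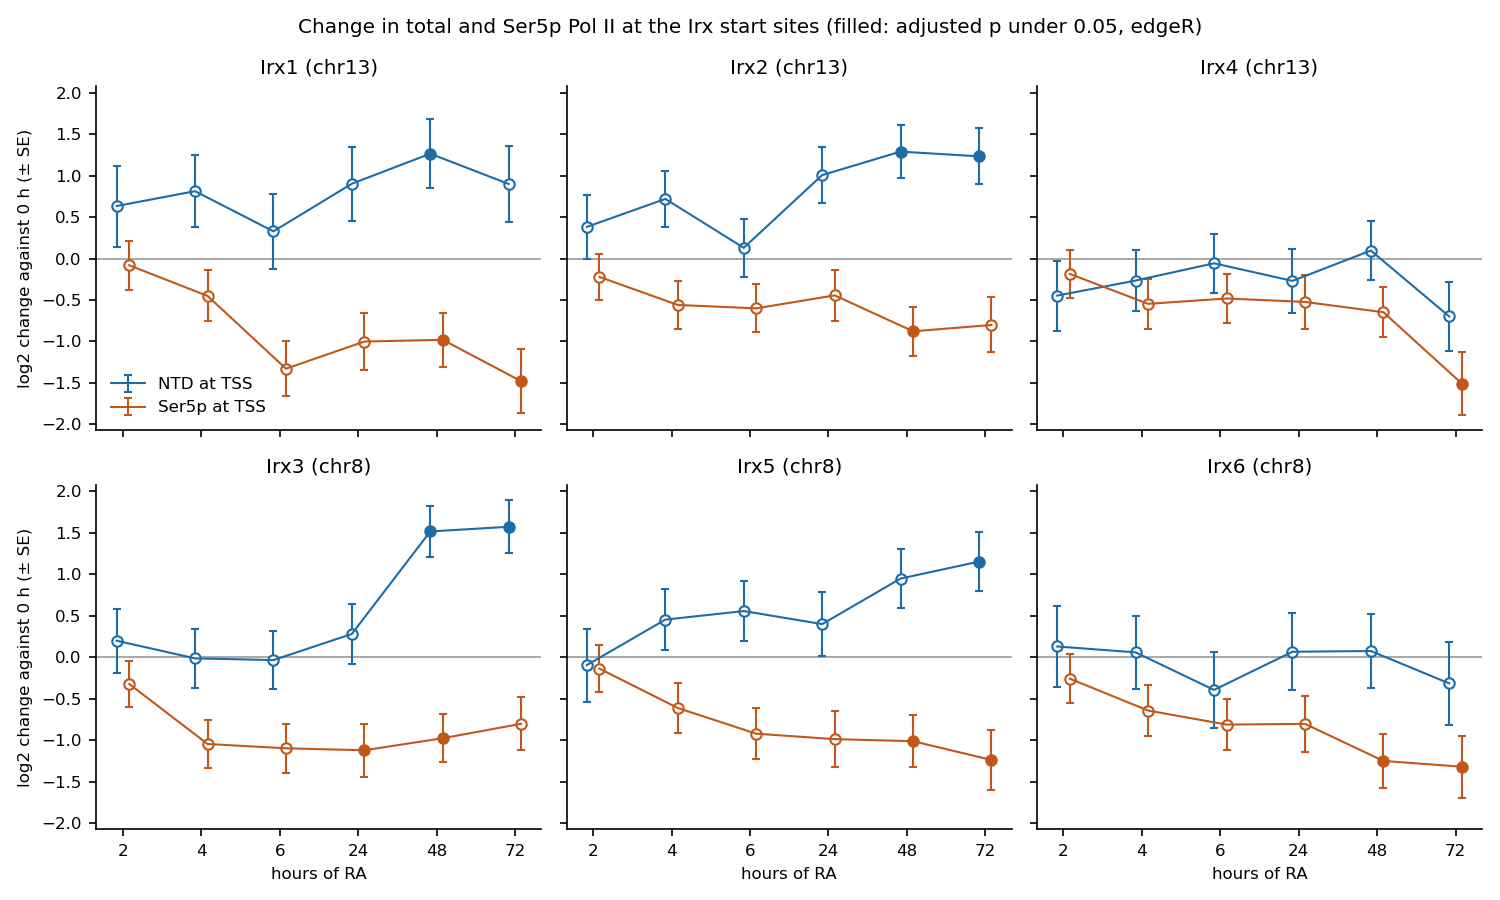
Log2 change against 0 h (vertical axis, ± SE from edgeR) against hours of RA (horizontal axis, not to scale) for NTD and Ser5p at the TSS, with filled points for an adjusted p under 0.05. At Irx2 and Irx3 total Pol II reaches between 1.23 and 1.57 at 48 and 72 h while Ser5p lies between -0.80 and -0.98, and at Irx4 and Irx6 the NTD changes have SE bars that reach or pass 0 at 48 h.

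Whether the phosphorylated form changed otherwise than total Pol II was tested with antibody by time terms in 1 edgeR fit over the NTD and Ser5p libraries. NTD and Ser5p libraries carry the same replicate numbers at most times, and this fit had no term for a shared sample. Over all times the difference was called at 1 of 6 genes, Irx3 (adjusted p 0.0171; 0.232% of transcripts), and the adjusted p was 0.0573 for Irx2, 0.059 for Irx5 and 0.126 for Irx1. The terms of single times were looked at after the changes above were known. At 48 h the Ser5p change minus the NTD change was -2.55 ± 0.47 at Irx3 (0.00689), -2.31 ± 0.55 at Irx1 (0.0347) and -2.23 ± 0.48 at Irx2 (0.0233), which makes 3 of 6 genes where 0.384% of transcripts had a lower Ser5p change. At 72 h it was called at 1 of 6, Irx3 (-2.43 ± 0.50, 0.0294; 0.0884% of transcripts), with 0.057 for Irx5, 0.0722 for Irx2 and 0.0848 for Irx1.

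Untreated replicate 4 weighs on these differences from both sides. Without the NTD library of that replicate the 48 h difference was -1.92 at Irx3 (edgeR adjusted p 0.26), -1.61 at Irx1 (0.696) and -1.93 at Irx2 (0.322), and without the Ser5p library it was -1.85 (0.563), -1.82 (0.654) and -1.43 (0.746). The test over all times still called Irx3 without either one (0.0436 and 0.0284), but not when replicate 4 of 0 h and replicate 3 of 72 h were left out for both antibodies (0.193).

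At the TSS the summed levels of the 2 clusters overlapped at each time from 0 to 48 h. At 72 h both libraries of the chromosome 13 sum lay below both of the chromosome 8 sum, with 38.4 and 25.5 against 43.5 and 39.6 CPM of NTD and 38.9 and 32.2 against 47.1 and 39.2 CPM of Ser5p. With the authors' scale factors the NTD sums at 72 h still did not overlap and the Ser5p sums did. Within each of these libraries the chromosome 13 sum was the lower one, which does not depend on the scale factor. Summed NTD levels were 21.0 ± 7.31 CPM for the chromosome 13 genes and 21.1 ± 8.62 CPM for the chromosome 8 genes at 0 h (SD, n = 2), and 21.6 ± 5.47 and 21.4 ± 6.47 CPM at 6 h (n = 3). They were 39.3 ± 2.53 and 43.8 ± 9.01 CPM at 48 h (n = 3) and 32.0 ± 9.11 and 41.5 ± 2.79 CPM at 72 h (n = 2). Both sums were thus higher at 48 h than at 6 h. The log2 ratio of the chromosome 13 to the chromosome 8 sum was 0.01 ± 0.09 at 0 h, 0.02 ± 0.46 at 6 h, 0.34 ± 0.11 at 24 h, -0.14 ± 0.22 at 48 h and -0.41 ± 0.32 at 72 h. The 2 libraries of 24 h lay above the 2 of 72 h, while the 3 libraries of 6 h alone ran from -0.35 to 0.54.

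Ser5p sums were 89.5 ± 48.7 CPM (chromosome 13) and 100.3 ± 50.9 CPM (chromosome 8) at 0 h, where the 2 libraries were far apart, 48.8 ± 10.5 and 46.7 ± 16.0 CPM at 6 h, and 45.8 ± 6.46 and 44.9 ± 9.78 CPM at 48 h. At 72 h they were 35.5 ± 4.71 and 43.2 ± 5.58 CPM. The log2 ratio was -0.18 ± 0.06 at 0 h, 0.22 ± 0.01 at 24 h and -0.28 ± 0.004 at 72 h. Over gene bodies the chromosome 13 sum, not scaled by gene length, was the higher one at every time. It was 10.4 ± 0.243 against 6.98 ± 0.245 CPM of NTD at 0 h and 13.4 ± 1.52 against 9.52 ± 0.860 CPM at 48 h. The bodies of Irx1, Irx2 and Irx4 span 5.49, 5.22 and 9.12 kb, those of Irx3, Irx5 and Irx6 3.14, 3.66 and 6.67 kb. Scaled by gene length and library total (FPKM), NTD at 48 h was 0.910, 0.987 and 0.951 for Irx1, Irx2 and Irx4. It was 1.48, 1.20 and 0.645 FPKM for Irx3, Irx5 and Irx6. The higher sum thus does not show more Pol II per length. Sums over members carry no test here. Within the chromosome 13 cluster Irx1 and Irx2 were called higher in NTD and Irx4 was not, and within the chromosome 8 cluster Irx3 and Irx5 were and Irx6 was not. The differences between members were not tested.

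**Figure D3:**
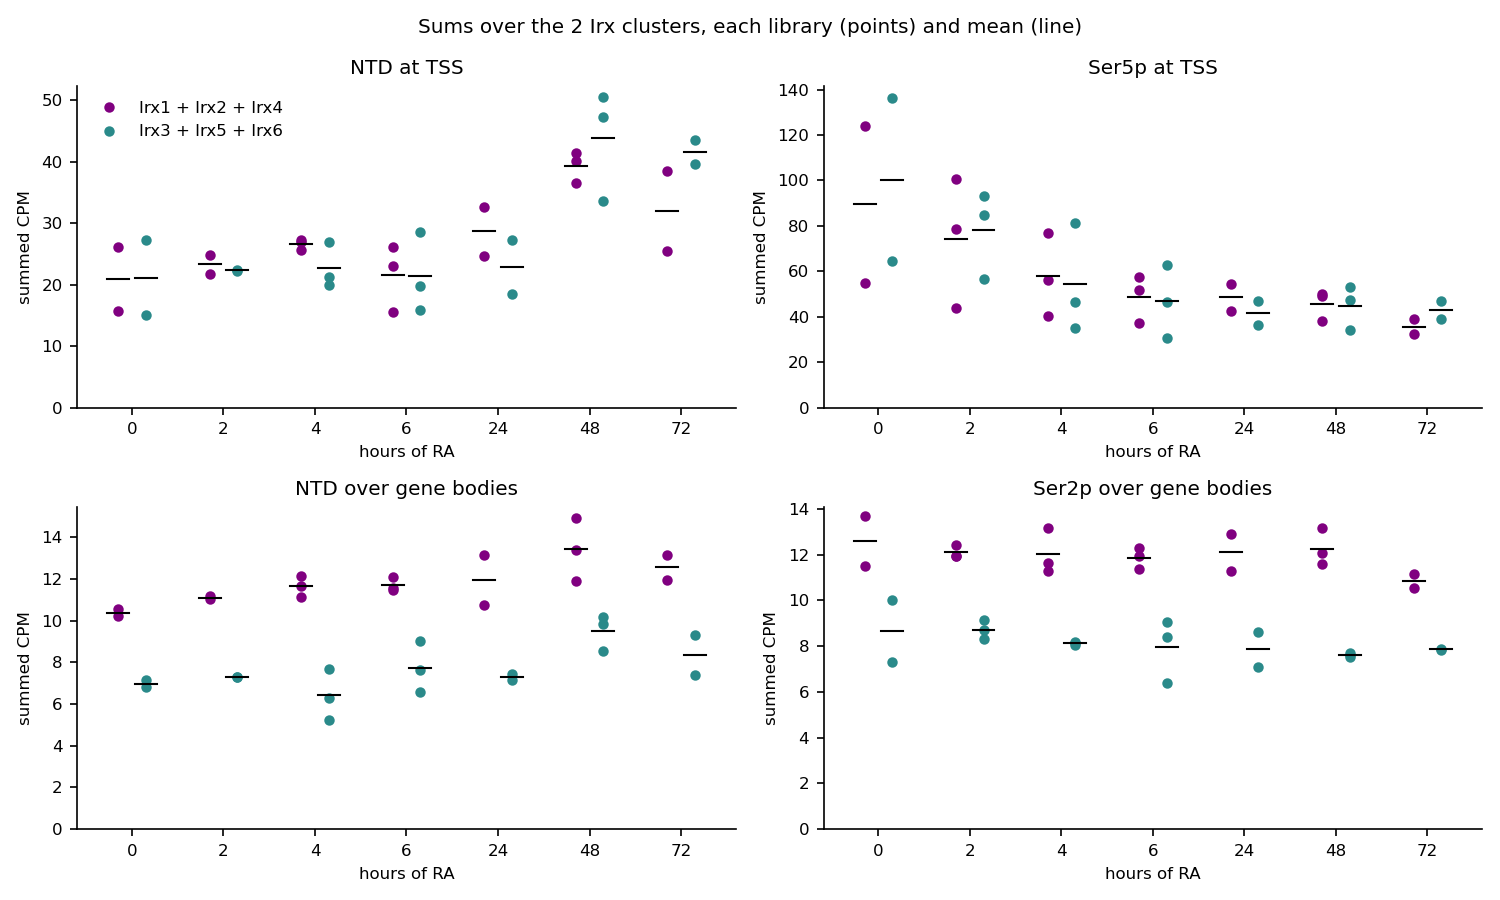
Summed CPM (vertical axes, from 0) of Irx1, Irx2 and Irx4 and of Irx3, Irx5 and Irx6 against hours of RA in the 4 tables, with 1 point per library and a line at the mean. At the TSS the libraries of the 2 clusters overlap at 0 to 48 h, with means of 39.3 and 43.8 CPM for NTD at 48 h. Over gene bodies the chromosome 13 sum, which is not scaled by gene length, is the higher one.

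Per length, the order of the genes at the TSS changed with time for NTD. In untreated cells the CPM per kb were 4.32 for Irx4, 4.01 for Irx3, 3.95 for Irx2, 3.35 for Irx5, 3.20 for Irx6 and 2.21 for Irx1, and every neighbour in this order overlapped with the next. At 48 h the order was Irx3 (11.9), Irx2 (9.96), Irx5 (6.49), Irx1 (5.15), Irx4 (4.56) and Irx6 (3.49). There the libraries of Irx2 and Irx5, and those of Irx5 and Irx1, did not overlap, and the other neighbours did. For Ser5p the order was Irx3 (20.8), Irx2 (18.5), Irx5 (18.4), Irx4 (13.5), Irx1 (12.7) and Irx6 (10.9) at 0 h and the same at 48 h (9.78, 9.09, 8.31, 7.83, 5.97 and 4.37), with all neighbours overlapping at both times. Irx3 and Irx2 thus led and Irx6 came last in both the untreated and the 48 h Ser5p libraries.

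Over gene bodies the changes were smaller. Mean levels there ran from 2.29 CPM (Irx3) to 5.72 CPM (Irx4) of NTD, below the median transcript with 13.6 CPM. For Ser2p they ran from 2.20 CPM (Irx3) to 5.86 CPM (Irx4), below the median transcript with 12.1 CPM. The bodies are short, from 3.14 kb (Irx3) to 9.12 kb (Irx4) as implied by the deposited FPKM (fragments scaled by gene length and library total), so the TSS window's downstream side and the body share reads. NTD over Irx3 read 0.744 and 0.915 FPKM at 0 h, 1.20, 0.679 and 0.795 FPKM at 6 h, 1.24, 1.75 and 1.44 FPKM at 48 h and 1.38 and 1.20 FPKM at 72 h. The 48 h libraries lay above those of 0 and 6 h. Irx3 rose by 0.77 ± 0.22 from 6 to 48 h (edgeR adjusted p 0.042), called in 12 of 23 alternatives, and measured 0.83 ± 0.25 against 0 h (0.0806). NTD over Irx2 read 0.640 and 0.774 FPKM at 0 h, 0.847, 1.09 and 1.03 FPKM at 48 h and 1.15 and 1.20 FPKM at 72 h, and rose by 0.69 ± 0.18 at 72 h (0.0455), called in 10 of 23 alternatives. Without untreated replicate 4 the Irx2 change was 0.84 (0.138), not called. NTD over Irx6 stayed between 0.627 and 0.659 FPKM in the 0 and 48 h libraries.

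For NTD over gene bodies edgeR called 1 gene higher at 72 h (Irx2; 2.87% of transcripts), 1 between 48 h and 6 h (Irx3; 3.77%) and 1 over all times (Irx3, adjusted p 0.0488; 7.81%). At 2, 4, 6, 24 and 48 h against 0 h edgeR and DESeq2 each called 0 of 6, with 0, 0, 0, 0 and 2 at an unadjusted edgeR p under 0.05 and 0.00%, 0.0188%, 0.0691%, 0.270% and 3.75% of transcripts called. DESeq2 gave no adjusted p for 2 of the 6 genes at 4 h.

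Ser2p over gene bodies showed no called change at any Irx gene. Ser2p over Irx3 read 0.910 and 1.17 FPKM at 0 h, 0.831 and 1.16 FPKM at 24 h, 1.29, 0.886 and 1.08 FPKM at 48 h and 1.02 and 1.20 FPKM at 72 h, and Irx2 read 1.06 and 0.887 FPKM at 0 h, 0.817, 1.11 and 1.11 FPKM at 48 h and 0.829 and 0.889 FPKM at 72 h. The Irx3 groups overlapped. At Irx2 the higher library of 72 h lay at the level of the lower untreated one in FPKM and below it in CPM. Irx5 read 0.926 and 1.20 FPKM at 0 h and 0.835 and 0.844 FPKM at 72 h, without overlap, with a change of -0.38 (edgeR adjusted p 0.299). Irx4 also lay below both untreated libraries at 72 h in CPM (-0.28, 0.379). At 2, 4, 6, 24, 48 and 72 h against 0 h, at 48 h against 6 h and over all times, edgeR called 0 of 6 with 0, 0, 1, 0, 0, 0, 1 and 0 at an unadjusted p under 0.05, and DESeq2 called 0 at each but gave no adjusted p for 5, 5, 2, 2, 0, 2, 4 and 0 of the 6 genes. The shares of transcripts called were 0.00%, 0.00%, 0.00%, 13.0%, 1.76%, 1.62%, 5.43% and 7.53%. The antibody by time terms of Ser2p against NTD over gene bodies called 0 of 6 in edgeR over all times (1 at an unadjusted p under 0.05; 0.00% of transcripts called; not run in DESeq2). So no difference between the Ser2p and NTD courses was called, at the Irx genes or at any other transcript. The Irx genes held 17 to 181 reads per gene and library, and the part of depth was not tested.

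**Figure D4:**
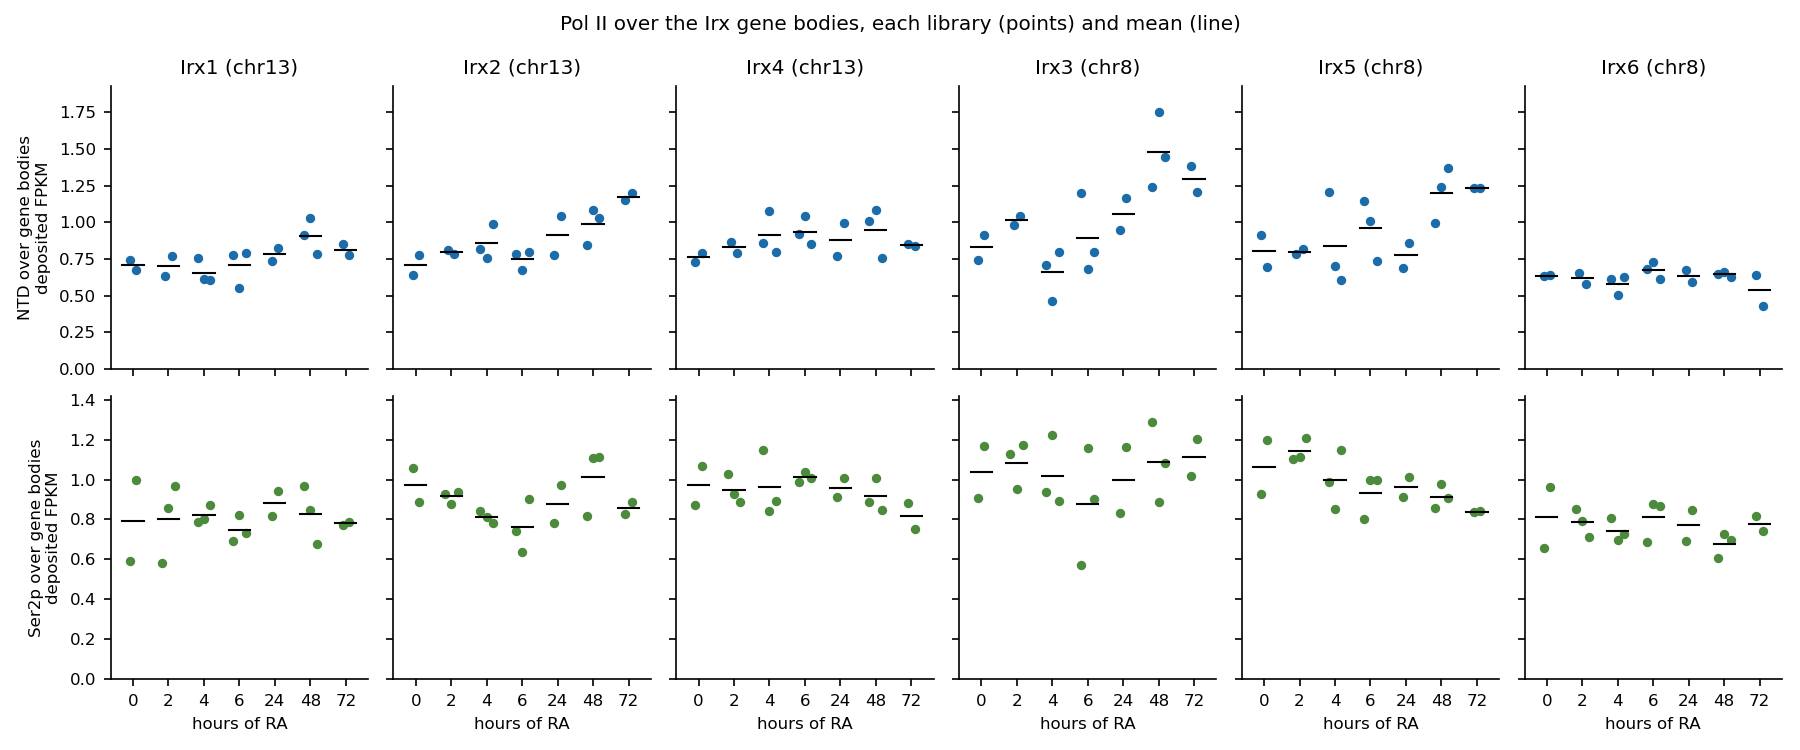
Deposited FPKM over gene bodies (vertical axes, from 0) against hours of RA (not to scale) for NTD (upper row) and Ser2p (lower row), with 1 point per library and a line at the mean. NTD over Irx3 is highest at 48 h, with libraries at 1.24 to 1.75 FPKM, and Ser2p over Irx3 overlaps between 0 and 48 h.

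The genes around the clusters differed among themselves. Gm20554, a noncoding gene that starts 256 bases from Irx2 in the opposite direction and shares 1745 bases of the 2 kb window, rose in NTD by 1.15 ± 0.32 at 48 h (edgeR adjusted p 0.0133) and fell in Ser5p by 0.92 ± 0.28 (0.0252), so reads of Irx2 and Gm20554 cannot be told apart. Crnde, a noncoding gene that starts 1676 bases from Irx5 and shares 325 bases of its window, measured -0.18 (0.734) in NTD at 48 h. Irx3os, antisense to Irx3, starts 1682 bases away and its window shares 319 bases with that of Irx3. Of 13 genes within or beside the chromosome 13 cluster with a row, 1 was higher (Gm20554) and 3 were lower in NTD at 48 h, where 4.66% of all transcripts were higher and 4.92% lower. The lower ones were Ndufs6, a subunit of respiratory complex I (-0.87 ± 0.20, 0.00199), Mrpl36, a mitochondrial ribosome protein (-0.90 ± 0.20, 0.0016), and Eprn (-0.93 ± 0.22, 0.00346), which lie 50.3 to 75.0 kb beyond Irx4. Without replicate 4 of 0 h and replicate 3 of 72 h these 3 genes were still called lower (-0.88, -1.001 and -0.91; adjusted p 0.0161, 0.00362 and 0.0267), and Gm20554 was no longer called in NTD (0.87, 0.217) or Ser5p (-0.27, 0.717).

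Of 11 genes within or beside the chromosome 8 cluster, 1 was higher and 1 lower in NTD at 48 h (4.66% and 4.92% of all transcripts). Fto, an RNA demethylase gene whose introns are known to hold enhancers of Irx3 and Irx5, rose by 0.73 ± 0.24 (edgeR adjusted p 0.0442), and also rose in Ser5p (0.77 ± 0.26, 0.0403). Mmp2, a matrix metalloprotease gene 146.3 kb beyond Irx6, measured -1.92 ± 0.44 (0.00186). The Ser5p change of Fto was opposite in sign to that of Irx3, Irx5 and Irx6. Without the 2 replicates neither gene was called: Fto was at 0.86 in NTD (edgeR adjusted p 0.103) and 0.66 in Ser5p (0.252), and Mmp2 in NTD turned to 0.28 (0.806).

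Other genes of the same settings were counted from lists at 48 h against 0 h, where 4.66% of all transcripts were higher and 4.92% lower in NTD, and 6.84% higher and 5.37% lower in Ser5p. Of 12 other TALE homeobox genes, 5 were higher and 1 lower in NTD at the TSS, with Meis1, Meis2, Pbx2 and Pknox2 among the higher ones and Tgif1 the lower one, and with a median change of 0.44 beside -0.03 over all transcripts. Meis1, a cofactor of Hox proteins, went from 10.3 to 35.1 CPM (1.73 ± 0.26, edgeR adjusted p 3.66e-06). In Ser5p 3 of the 12 were higher and 3 lower (median 0.40, beside -0.07 over all transcripts). Pbx2, a Hox cofactor, rose in Ser5p by 1.94 ± 0.30 (3.44e-05), the direction opposite to that of the called Irx genes. Without replicate 4 of 0 h and replicate 3 of 72 h, 3 of the 12 were higher and 0 lower in each of NTD and Ser5p.

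Of 16 factors that mark progenitor domains of the neural tube, 1 was higher and 1 lower in NTD (median 0.08), close to the shares of all transcripts, and 1 was higher and 11 lower in Ser5p (median -1.06). Gli3 and Gli2, transducers of Hedgehog signals, changed by 1.18 ± 0.22 (edgeR adjusted p 0.000114) and -0.78 ± 0.21 (0.0117) in NTD. In Ser5p, Pax7, a dorsal factor, fell from 73.7 to 14.6 CPM (-2.22 ± 0.35, 4.77e-05) and Nkx2-2, a ventral one, from 36.6 to 8.90 CPM (-1.90 ± 0.32, 8.17e-05). Without the 2 replicates named above, 1 of the 16 (Pax7) was lower in Ser5p and 1 (Gli3) higher. The lower Ser5p of the Irx genes at 48 h was thus shared with this list in the fit over all libraries.

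Of 13 factors of borders along the anterior-posterior axis, 2 were higher and 2 lower in NTD (median 0.10) and 0 were higher and 8 lower in Ser5p (median -1.32). Egr2, a hindbrain factor, rose in NTD by 0.96 ± 0.30 (edgeR adjusted p 0.0332), and Fezf2, a forebrain factor, fell in Ser5p by 1.92 ± 0.38 (0.000569). Without the 2 replicates, 1 was higher and 1 lower in NTD, and 2 lower in Ser5p. Of the heart factors, 0 of 11 tested were called in NTD at 48 h (median 0.02; Tbx20 rose by 0.87 ± 0.28 at 72 h, 0.0361) and 4 of 12 were lower in Ser5p (median -0.54), among them Gata4 (-1.37 ± 0.32, 0.00302) and Hand1 (-1.12 ± 0.33, 0.0194), none of them without the 2 replicates. Of 10 known RA targets, 9 were higher in NTD (median 1.44) and 5 in Ser5p (median 0.81), and 8 and 6 without the 2 replicates. Rarb, the RA receptor beta gene, rose in NTD by 2.90 ± 0.28 (3.11e-10) and in Ser5p by 2.60 ± 0.31 (2.38e-07), so that both antibodies moved together at this gene.

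**Figure D5:**
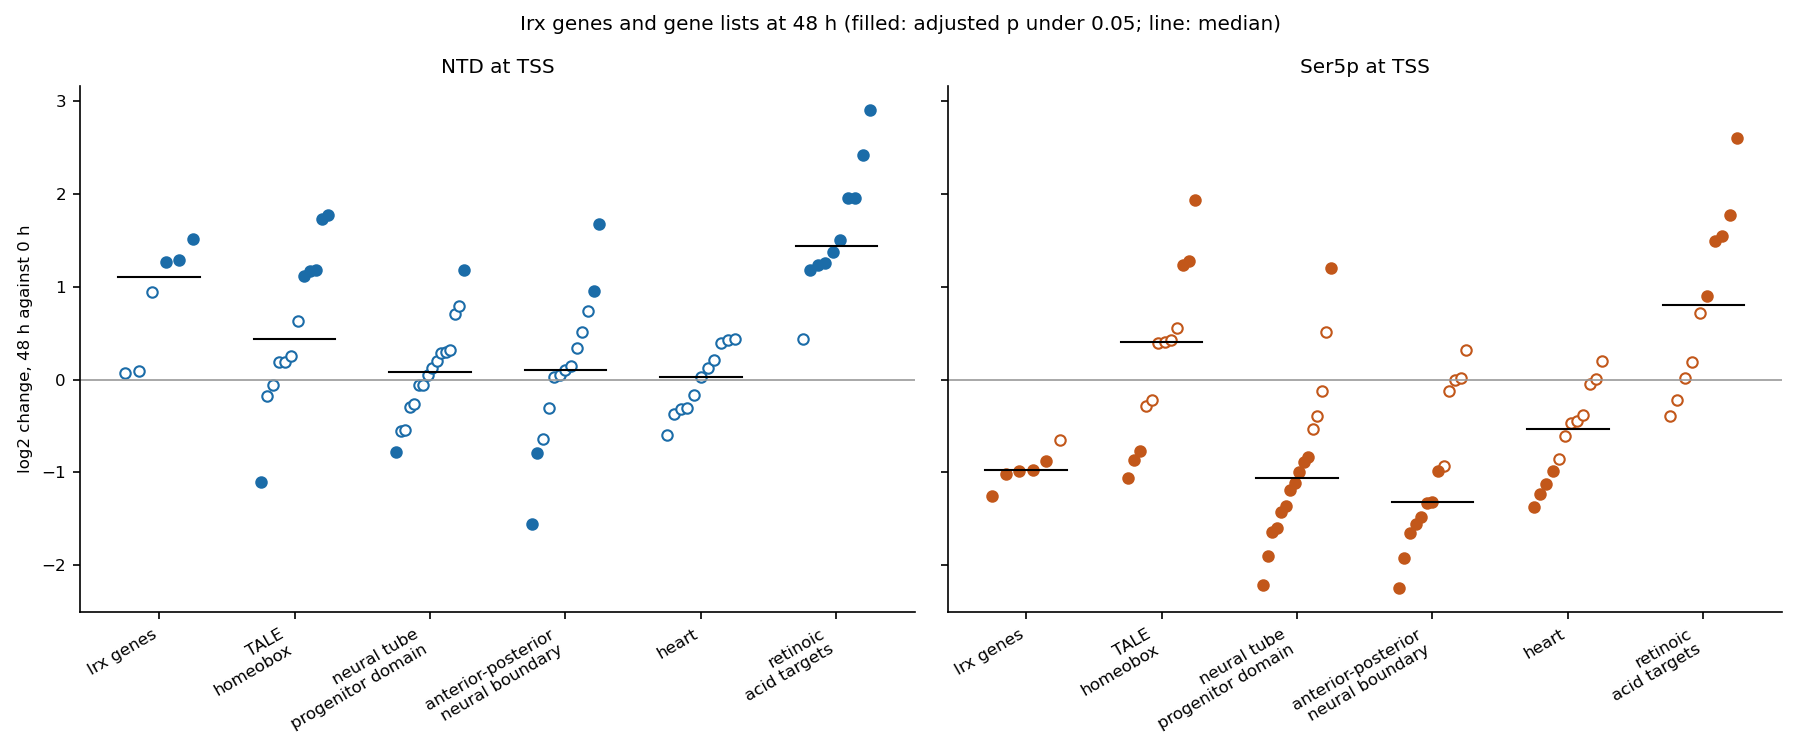
Log2 change at 48 h against 0 h (vertical axis) of the 6 Irx genes and of 5 gene lists at the TSS, for NTD (left) and Ser5p (right), with filled points for an edgeR adjusted p under 0.05 and a line at the median. In Ser5p the Irx genes lie in the range of the neural tube and boundary lists (medians -1.06 and -1.32), and in NTD 3 Irx genes (Irx1, Irx2 and Irx3) lie between 1.26 and 1.52.

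The genes whose Ser5p course over the 18 libraries was most like that of each Irx gene, by Pearson correlation of log2 CPM among 19776 symbols, are named from the 3 nearest per gene. The nearest gene was Ptf1a, a pancreas and hindbrain factor, for Irx1 (r = 0.92), Efna5, an ephrin, for Irx2 (0.93), Zfp503 for Irx3 (0.91), Adcy8 for Irx4 (0.93), Sox9, a factor of cartilage and neural crest, for Irx5 (0.96) and Hoxd12 for Irx6 (0.95). The next ones were Prdm16 and Lingo2 for Irx1, Zic2 and Hoxc5 for Irx2, Fhdc1 and Nr2f2 for Irx3, Fam155a and Mical1 for Irx4, Flt1 and Grm8 for Irx5, and Ptf1aos for Irx6. Between Irx genes r ran from 0.595 (Irx3 and Irx4) to 0.872 (Irx2 and Irx5). All these values share the same libraries, untreated replicate 4 included, and are given as a description.

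Markers of cell types were read in the same NTD libraries at the TSS, and their counts come from the fit over all libraries. Of all transcripts, 4.66% were higher and 4.92% lower in NTD at 48 h, and 5.66% were higher at 72 h. The summed level of 8 markers of embryonic stem cells was 674 to 843 CPM at 0 h, 383 to 430 CPM at 48 h and 423 to 450 CPM at 72 h. At 48 h 5 of these 8 were lower, among them Pou5f1 and Sox2. The sum of 9 primitive endoderm markers was 89.2 to 92.0 CPM at 0 h, 134 to 193 CPM at 48 h and 148 to 310 CPM at 72 h, with 3 of 9 higher at 48 h and 6 of 9 at 72 h. The stem cell sum was lower and the endoderm sum higher at the times at which NTD at Irx2 and Irx3 was higher. The sum of 7 neural progenitor markers was 74.0 to 77.4 CPM at 0 h, 97.1 to 123 CPM at 48 h and 112 to 116 CPM at 72 h, with 1 of 7 (Nes) higher at both late times.

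Of 8 fibroblast and 7 trophoblast markers, edgeR called 0 in NTD at 48 and 72 h, with sums of 47.7 to 63.1 and 66.2 to 89.2 CPM at 0 h and 44.9 to 70.3 and 66.1 to 88.2 CPM at 48 h. In Ser5p 5.37% of all transcripts were lower at 48 h. The Ser5p sum of the neural progenitor markers was 138 to 292 CPM at 0 h and 105 to 124 CPM at 48 h (5 of 7 lower). That of the trophoblast markers was 157 to 246 and 87.6 to 105 CPM (3 of 7 lower), beside the lower Ser5p of the Irx genes. These Ser5p counts of markers include untreated replicate 4 and are not given without it. At the same times the sums were 206 to 340 and 141 to 235 CPM for primitive endoderm markers. They were 652 to 728 and 365 to 456 CPM for stem cell markers and 104 to 123 and 62.3 to 111 CPM for fibroblast markers. No marker gene was at 0 in all libraries of a time. The part of these markers' cells in the Irx results was not tested.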

How the data were processed

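E14 cells were profiled by chromatin immunoprecipitation and sequencing with 3 antibodies at 7 times. The deposited tables hold raw read counts per transcript, normalized signal in which the authors divided these counts by 1 scale factor per library, FPKM over gene bodies, and the authors' log2 fold changes and adjusted p-values. Per the submitters' processing notes, Bowtie2, SAMtools, MACS2 and DESeq2 and the builds mm10 and dm6 were used. The counting tool is not given in the sources used here. 14 deposited columns of FPKM means per time were not used.

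The deposited counts were tested in edgeR 4.0.16 (R 4.3.3; TMM, filterByExpr, quasi-likelihood F test) over all times of a table, with Benjamini-Hochberg adjustment over 31868 (NTD, TSS), 32774 (Ser5p), 31843 (NTD, bodies) and 32123 (Ser2p) transcripts and a threshold of 0.05. SE is the log2 change divided by the square root of F. Antibody by time terms were fitted over 32820 (TSS) and 32232 (bodies) transcripts. Alternatives were the authors' scale factors, no filter, a replicate block, DESeq2 1.42.0, and libraries left out. The scripts were tested on simulated data.

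Each Irx gene was read from its row with the highest mean count. Also named are the 3 genes with the most similar Ser5p course (log2 of CPM + 0.5, mean of at least 5 CPM), the 5 nearest genes on each side of a cluster and those inside it, and at most 2 genes per list with the smallest adjusted p over all times. Genes outside this rule are named for counts of 5 or fewer, after their values were seen. Some genes that the rule selects are not reported here. The members and lists were chosen with earlier results of these data known. Names and positions come from RefSeq on GRCm38, the assembly of mm10.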

Additional observations from a re-analysis of the deposited data

Results flagged for a closer look

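These differences were singled out because the Ser5p change differed from the NTD change at the same start site by the antibody by time term of edgeR. At 48 h the Ser5p change minus the NTD change was -2.31 at Irx1 (adjusted p 0.0347), -2.23 at Irx2 (0.0233) and -2.55 at Irx3 (0.00689). At 72 h it was -2.43 at Irx3 (0.0294), and over all times Irx3 had an adjusted p of 0.0171. In the untreated cells 1 replicate was low in NTD and high in Ser5p at 6 of 6 Irx genes, and without that replicate and replicate 3 of 72 h the 48 h differences were -1.21 at Irx1, -1.22 at Irx2 and -1.31 at Irx3, and the 72 h difference at Irx3 was -1.08, none of them called. The Irx3 difference over all times then had an adjusted p of 0.193.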

How the results depend on the processing

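Counts of called Irx genes against 0 h rest on few libraries and few reads. Leaving out each library in turn gave 0 to 3 genes at 48 h and 0 to 3 at 72 h for NTD at the TSS (3 and 3 with all), 1 to 2 between 48 h and 6 h (2), and for Ser5p 0 to 2 at 4 h (0), 0 to 4 at 6 h (0), 0 to 3 at 24 h (1), 0 to 6 at 48 h (5), 0 to 6 at 72 h (4) and 2 to 6 over all times (4). For NTD over gene bodies it gave 0 to 1 at 72 h, between 48 h and 6 h and over all times (1 each), and for Ser5p against NTD 0 to 4 at 48 h (3), 0 to 4 at 72 h (1) and 1 to 4 over all times (1). Without 0 h replicate 4 and 72 h replicate 3 together, 0 genes were called for NTD at the TSS at 48 and 72 h, for Ser5p at 24, 48 and 72 h, for NTD over bodies at 72 h and over all times, and for Ser5p against NTD at 48 h, 72 h and over all times, and 2 for Ser5p over all times; fewer samples were then fitted. With the authors' scale factors 1 gene (Irx2) was called for NTD at 24 h, 4 for NTD over all times, 0 for Ser5p at 24 h, 1 for Ser5p at 48 h and 0 for NTD over bodies over all times. DESeq2 called 0 for Ser5p at 24 h, 1 at 48 h and 0 for NTD over bodies at 72 h. No filter gave 0 for NTD over bodies over all times, and 2 at 72 h and 3 over all times for Ser5p against NTD. The causes were not tested.

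The replicate numbers were not taken to pair the samples, since not every correlation of deviations between libraries of the same number was over 0.1. These had both signs, with medians of 0.107, 0.0957, 0.192 and 0.0582 in the 4 tables, above those between different numbers (-0.0467, -0.0345, -0.105 and -0.0137). Of 32, 37, 32 and 37 pairs of the same number, 18, 18, 26 and 17 were over 0.1. Replicate 4 was present only at 0 to 6 h and replicate 2 only at 24 and 48 h. Replicate number and time are thus partly confounded. A replicate block gave 1 gene for NTD at 72 h, 0, 0 and 2 for Ser5p at 24, 48 and 72 h, 2 for Ser5p over all times, 0 for NTD over bodies over all times, and 4 at 72 h and 4 over all times for Ser5p against NTD. Under the block the uncalled NTD changes of Irx4 turned to -0.19 (48 h against 0 h) and -0.0097 (48 h against 6 h).

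Other uncalled changes also changed sign. Without the 2 replicates Irx4 was at -0.11 and Irx6 at -0.24 for NTD at 48 h, and Irx4 at 0.079 for Ser5p against NTD. With single libraries left out, the NTD changes at 48 h ranged from -0.11 to 0.34 for Irx4 and from -0.23 to 0.45 for Irx6, that of Irx6 at 72 h from -0.81 to 0.28, and that of Irx4 between 48 h and 6 h from -0.072 to 0.39. Of 20 called changes 0 changed sign in any alternative run, and of 148 not called 79 did. Of 36 counts of called Irx genes, many of them 0, 19 stayed within 1.5 times in every alternative run. All 146 of 146 values of cluster sums and orders were labelled unchanged, which is no evidence of stability. With so few libraries per time, a mean with a library left out cannot move beyond their SD. The log2 ratio within a library does not depend on the scale factor. Orders were judged by the number of ranks kept.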
